A study of Mus musculus with 12 samples.

Results

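The apolipoproteins of liver are secreted proteins that solubilise lipid in plasma, and 10 of their genes are described here: Apoa1, Apoa2, Apoa4, Apoa5, Apob, Apoc1, Apoc3, Apoe, Apoh and Apom. They were taken by symbol from a liver count table of 56748 genes, of which 14003 had enough counts to be tested, and all 10 were among those tested. Bulk poly(A) RNA of mouse liver was sequenced in 12 libraries, 3 biological replicates in each of 4 groups. The groups were male and female mice of the line 129/Sv-Cyp2e1tm1Gonz/J (KO), which carries a targeted allele of the cytochrome P450 gene Cyp2e1, and male and female 129S1/SvImJ mice (WT). All animals were 16 weeks old, ate normal chow and were co-housed, and the labels name no treatment. The KO and WT mice belong to different lines, so the allele and the line background cannot be told apart in any KO comparison. In whole liver, fewer cells of a type and less RNA per cell cannot be told apart either.

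Liver releases triglyceride in very low density lipoprotein (VLDL), a particle built around a single molecule of apolipoprotein B. The smaller apolipoproteins A, C and E exchange between VLDL, chylomicrons and high density lipoprotein (HDL), where they activate or inhibit lipases and act as ligands for hepatic receptors. In the mouse genome Apoe and Apoc1 are neighbours in one cluster, and Apoa1, Apoc3, Apoa4 and Apoa5 lie side by side in another.

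Total counts ran from 15167730 to 25082532 per library. Cyp2e1, the targeted gene, lay between 318 and 403 CPM (library-size-scaled counts, with TMM factors) in male KO livers, against 10374 to 11480 CPM in male WT livers. In female KO livers it lay between 230 and 323 CPM, against 6213 to 7076 CPM in female WT livers. The libraries also differed in how counts were spread over short and long genes. This is given as a length slope, the change, per doubling of gene length, in how far a library's log2 CPM lies from the 12-library mean, over 9366 genes. The slope was 0.08, 0.29 and 0.19 in female KO replicates 1, 2 and 3, against -0.14, -0.23 and -0.20 in female WT replicates 1, 2 and 3, so the female groups did not overlap. It was 0.08, -0.17 and 0.17 in male KO livers, against -0.03, 0.11 and -0.16 in male WT livers, and the male groups overlapped. Summed hepatocyte markers lay at 121804 to 134031 CPM in female KO livers and 87527 to 120059 CPM in female WT livers, and at 77699 to 90902 CPM in male KO livers and 65307 to 89416 CPM in male WT livers.

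The 10 genes together took 6.93 ± 1.19% of all counts in female KO livers and 7.66 ± 0.264% in female WT livers (SD, n = 3 each). They took 6.55 ± 0.362% in male KO livers and 6.76 ± 0.314% in male WT livers (SD, n = 3 each). Per kilobase of the gene length in the table, Apoe had the highest mean level, 16519 CPM per kb, which placed it at rank 2 of all genes tested. Apoa2 followed at 13536, Apoa1 at 9806, Apoc1 at 5705, Apoc3 at 4266 and Apoh at 1693 CPM per kb. Apoa5 stood at 420, Apom at 396, Apoa4 at 272 and Apob at 164 CPM per kb. Most neighbours in this order kept it in nearly every library: Apoa2 exceeded Apoa1, Apoc3 exceeded Apoh, and Apoh exceeded Apoa5 in 12 of 12 libraries. Apoe exceeded Apoa2 in 10 of 12, Apoa1 exceeded Apoc1 in 11, Apoc1 exceeded Apoc3 in 11, Apom exceeded Apoa4 in 10 and Apoa4 exceeded Apob in 10. Apoa5 and Apom could not be ordered, since Apoa5 was the higher of the pair in 7 of 12 libraries.

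The genes differed widely in how much they varied. The SD of log2 CPM over the 12 libraries was 0.75 for Apoc1 and 0.72 for Apoc3, the widest of the 10, and 0.12 for Apoh, the narrowest, against a median of 0.47 over all genes tested. It was 0.52 for Apoa4, 0.45 for Apob and 0.40 for Apoa1, and between 0.20 and 0.31 for Apoe, Apoa2, Apoa5 and Apom. Every member had at least 4482 counts in every library, so counting error was small beside these spreads.

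**Figure D1:**
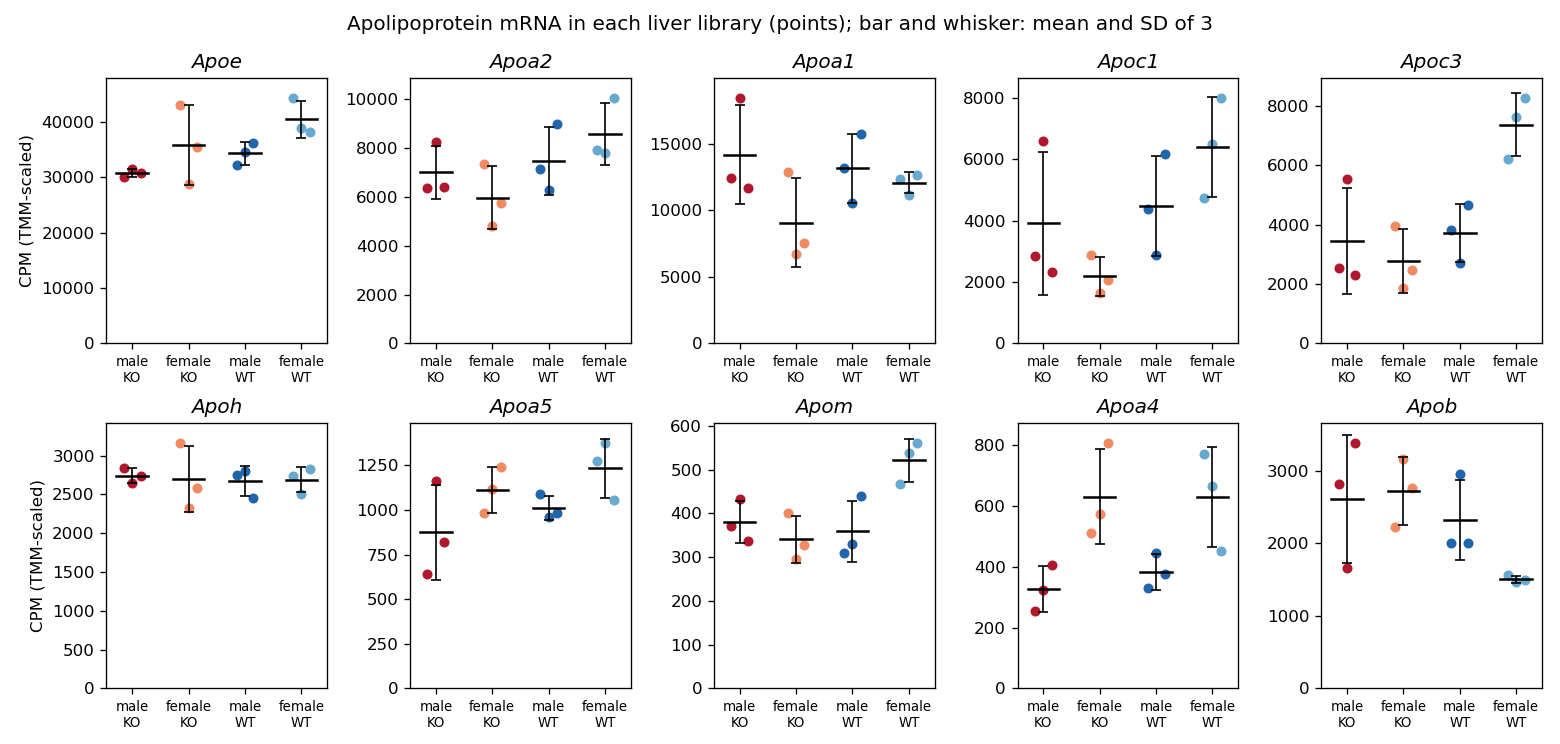
CPM (TMM-scaled) of the 10 apolipoprotein genes, 1 panel per gene with the axis from 0; points are libraries, and bars are group means ± SD (n = 3). Apoc1 and Apoc3 lie lower, and Apob higher, in all 3 female KO livers than in any female WT liver, and Apoa4 lies lower in all 3 male KO livers than in any female KO liver.

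The first question was whether KO and WT livers differ in females. Transcripts of the small lipase-regulating apolipoproteins Apoc1 and Apoc3 and of the sphingosine-1-phosphate carrier Apom were lower, and those of the VLDL scaffold Apob were higher, in female KO livers. By edgeR's quasi-likelihood test with Benjamini-Hochberg adjustment over all genes, 4 of 10 members were called at an adjusted p under 0.05, 1 higher and 3 lower, while 36.5% of all genes tested were called in the same comparison (17.7% higher and 18.8% lower). The share of members called is therefore near that of liver genes at large. The median log2 fold change (KO over WT) was -0.29 over the 10 members and 0.05 over all genes tested. KO and WT libraries did not overlap in 5 of 10 members, against 54.8% of all genes.

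Apoc1 encodes a small exchangeable apolipoprotein that slows receptor uptake of remnants. Its gene, at chr7:19423406-19426585 on the minus strand of mm39, has a listed gene length of 744 bases. Apoc1 stood at 2875, 1627 and 2059 CPM in female KO livers, against 4722, 6486 and 7989 CPM in female WT livers. The highest KO liver was far below the lowest WT liver, and the WT livers were themselves spread widely. The mean was 2187 ± 634 CPM in female KO and 6399 ± 1635 CPM in female WT livers (SD, n = 3 each), a log2 fold change of -1.55 ± 0.39 (SE) with an edgeR adjusted p of 0.0151. Apoc3, which inhibits lipoprotein lipase and remnant clearance, lies at chr9:46144231-46146934 on the minus strand of mm39, on another chromosome than Apoc1. Apoc3 has a listed gene length of 1014 bases. It stood at 3965, 1862 and 2481 CPM in female KO livers, against 6201, 7615 and 8255 CPM in female WT livers. Again the groups did not overlap, and KO replicate 2 was the lowest library for both genes. The log2 fold change of Apoc3 was -1.41 ± 0.36 (edgeR adjusted p = 0.0149). Both calls were lost when female KO replicate 2 was left out (adjusted p = 0.0646 for Apoc1 and 0.0641 for Apoc3 by edgeR) or when female WT replicate 2 was left out (0.0563 and 0.0564). Over the 12 fits that each left out 1 library, the log2 fold change ran from -1.79 to -1.36 for Apoc1 and from -1.76 to -1.19 for Apoc3.

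Apom encodes a lipocalin that rides on HDL and binds sphingosine-1-phosphate. Its gene, at chr17:35347973-35351026 on the minus strand of mm39, has a listed gene length of 1013 bases. Apom stood at 400, 295 and 328 CPM in female KO livers, against 467, 538 and 561 CPM in female WT livers. The ranges were separate but close, with KO replicate 1 nearest to the WT livers. The log2 fold change was -0.61 ± 0.19 (edgeR adjusted p = 0.026), and leaving out female KO replicate 2 or 3 or female WT replicate 2 or 3 raised the adjusted p to between 0.0743 and 0.104.

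Apob, at chr12:8027648-8066835 on the plus strand of mm39, encodes the structural protein of VLDL, and its listed gene length of 13934 bases is the longest of the 10. Apob stood at 2225, 3163 and 2766 CPM in female KO livers, against 1558, 1463 and 1499 CPM in female WT livers. The WT livers were nearly equal and all KO livers exceeded them. The mean was 2718 ± 471 CPM in female KO and 1507 ± 47.7 CPM in female WT livers (SD, n = 3 each), a log2 fold change of 0.85 ± 0.26 (edgeR adjusted p = 0.0231). The call was lost in 5 of the 12 fits that left out 1 library: without female KO replicate 2 or 3, or without any 1 of the female WT replicates, the adjusted p lay between 0.0503 and 0.0887.

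The sequence just before the start site of Apob and Apom is shown because these genes were called in opposite directions, and that of Apoa4 because it is the member called between the sexes below. The 250 bases are from RefSeq on GRCm38.p6, an older build than the mm39 positions of the count table, at chr12:7977427-7977676 (plus strand) for Apob, chr17:35131802-35132051 (minus strand) for Apom and chr9:46240594-46240843 (plus strand) for Apoa4. Each is written 5′ to 3′ along the gene, and capitals mark matches to 7 short motifs searched on both strands.
Apob: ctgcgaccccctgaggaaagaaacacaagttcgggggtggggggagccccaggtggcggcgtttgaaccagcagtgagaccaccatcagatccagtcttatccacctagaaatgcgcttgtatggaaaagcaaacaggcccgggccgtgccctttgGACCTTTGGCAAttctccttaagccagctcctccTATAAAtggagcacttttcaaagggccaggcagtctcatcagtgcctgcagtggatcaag
Apom: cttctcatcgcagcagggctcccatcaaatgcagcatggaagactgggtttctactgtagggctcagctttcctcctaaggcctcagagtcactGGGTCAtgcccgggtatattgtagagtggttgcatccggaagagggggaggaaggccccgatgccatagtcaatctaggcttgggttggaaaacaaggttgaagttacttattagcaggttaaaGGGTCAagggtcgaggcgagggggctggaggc
Apoa4: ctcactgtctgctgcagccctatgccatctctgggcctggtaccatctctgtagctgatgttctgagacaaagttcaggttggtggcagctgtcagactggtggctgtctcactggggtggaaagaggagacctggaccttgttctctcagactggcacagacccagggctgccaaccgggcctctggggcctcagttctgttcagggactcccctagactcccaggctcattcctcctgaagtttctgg
In Apob the capitals mark CAAAGGTC, a core of HNF4 sites, read on the reverse strand at -94, which overlaps the C/EBP-type motif TTNNGCAA at -90, and the TATA box letters TATAAA at -60. In Apom they mark the nuclear receptor motif GGGTCA at -156 and -32. The Apoa4 window held none of the 7, which were these 4, a further nuclear receptor motif AGGTCA, the HNF1 motif GTTAAT and a further HNF4 core CAAAGTCCA. Of 32851 mouse promoter windows of this length, 1.01% held the CAAAGGTC core, 9.56% the C/EBP-type motif and 12.4% the TATA letters. The share was 11.6% for GGGTCA, 14% for AGGTCA, 6.43% for the HNF1 motif and 0.384% for the further HNF4 core. These matches describe letters in the windows and were not tested against expression, and the motif list was settled after the sequences had been read. RefSeq windows were at hand for 8 of the 10 members, all but Apoc1 and Apoc3.

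The HDL proteins Apoa1 and Apoa2 had lower means in female KO livers without passing the main edgeR test. Apoa1, the main HDL protein and an activator of the cholesterol-esterifying enzyme LCAT, stood at 12915, 6738 and 7580 CPM in female KO livers, against 12325, 11178 and 12686 CPM in female WT livers. KO replicate 1 was as high as the WT livers and the other 2 were well below them (log2 fold change -0.41 ± 0.26, edgeR adjusted p = 0.23). Apoa2, the other abundant HDL protein, stood at 7361, 4813 and 5757 CPM in female KO livers, against 7917, 7802 and 10059 CPM in female WT livers. All KO livers were below all WT livers, replicate 1 only slightly (-0.52 ± 0.21, edgeR adjusted p = 0.0701). Without female KO replicate 1 both genes were called, at -0.75 for Apoa1 (edgeR adjusted p = 0.038) and -0.70 for Apoa2 (0.0373). That library had the lowest length slope of the female KO livers, 0.08 against 0.29 and 0.19. With the length slope in the model the values were 0.46 for Apoa1 (edgeR adjusted p = 0.606) and 0.10 for Apoa2 (0.932). With the length trend removed they were 0.32 (edgeR adjusted p = 0.173) and 0.65 (0.0242).

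The remaining 4 members had female fold changes between -0.18 and 0.00 and overlapping groups. Apoe, the ligand through which remnants bind receptors of the liver, averaged 35810 ± 7196 CPM in female KO and 40452 ± 3362 CPM in female WT livers (SD, n = 3 each; edgeR adjusted p = 0.452). Macrophages also make Apoe. Summed Kupffer cell markers lay at 240 to 292 CPM in female KO and 152 to 221 CPM in female WT livers. Of the 10 markers 4 were called higher, against 17.7% of all genes tested. The part of these cells in the Apoe values was not tested. Apoh, or beta-2-glycoprotein I, a phospholipid-binding plasma protein, lay at 2331 to 3162 CPM in female KO and 2507 to 2823 CPM in female WT livers (0.00 ± 0.16, edgeR adjusted p = 0.997). Apoa5, which promotes lipolysis by lipoprotein lipase, lay at 981 to 1240 CPM in female KO and 1053 to 1375 CPM in female WT livers (-0.15 ± 0.21, edgeR adjusted p = 0.602). For Apoa4 the log2 fold change was 0.00 ± 0.25 (edgeR adjusted p = 0.992).

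**Figure D2:**
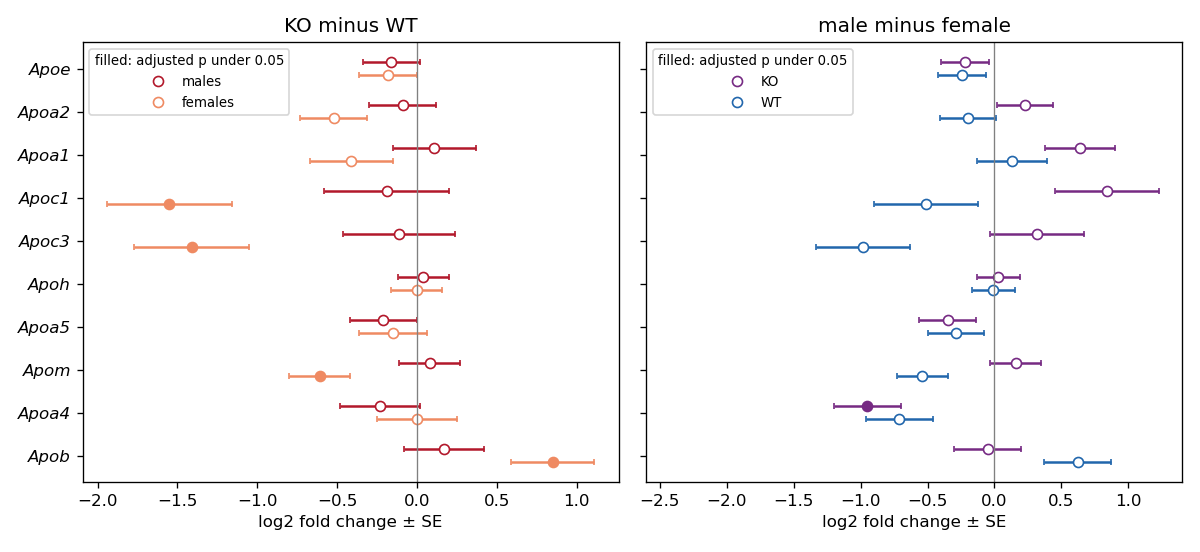
Log2 fold changes ± SE of the 10 genes, for KO minus WT in males and females (left) and for male minus female in KO and WT mice (right); filled points passed an edgeR adjusted p under 0.05. On the left only the female values of Apoc1, Apoc3, Apom and Apob are filled, and on the right only Apoa4 in KO mice.

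In males no member differed between KO and WT livers by the same test. None of 10 was called, at an adjusted or an unadjusted p under 0.05 by edgeR or at an adjusted p under 0.05 by DESeq2. Of all genes, edgeR called 0.0571%, and 4.84% had an unadjusted p under 0.05. The log2 fold changes ran from -0.23 to 0.17. Apoc1 stood at 2836, 6582 and 2327 CPM in male KO livers, against 4382, 2894 and 6158 CPM in male WT livers. Apoc3 stood at 2551, 5515 and 2287 CPM in male KO livers, against 3810, 2705 and 4660 CPM in male WT livers. KO replicate 2 was the highest male library for both genes, more than 2-fold above the other KO livers, so the male groups overlapped fully. Apob stood at 2813, 1654 and 3383 CPM in male KO livers, against 2004, 2954 and 1999 CPM in male WT livers. Here KO replicate 2 was the lowest male library. Apom stood at 371, 433 and 338 CPM in male KO livers, against 309, 330 and 439 CPM in male WT livers, again fully overlapping. Apoe was the 1 member of 10 whose male groups did not overlap (9.62% of all genes), at 29962, 31441 and 30701 CPM in male KO and 32171, 34581 and 36162 CPM in male WT livers, a difference of -0.16 ± 0.18 on the log2 scale that missed the threshold (edgeR adjusted p = 1).

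The difference between the male and female KO effects was called for 0 of 10 members by edgeR, and for 0% of all genes tested. At an unadjusted p under 0.05, the difference passed for 3 of 10 members against 22.5% of all genes. These were Apoc1 (1.35 ± 0.55, male minus female KO effect on the log2 scale, edgeR adjusted p = 0.205), Apoc3 (1.30 ± 0.50, 0.204) and Apom (0.70 ± 0.27, 0.204). DESeq2 called 0 of 10 members. The female calls are therefore not shown to differ from the male values. Averaged over the sexes, 1 of 10 members was called against 15.1% of all genes. It was Apoc1 (-0.87 ± 0.27, edgeR adjusted p = 0.0491), with Apoc3 (-0.76 ± 0.25, 0.0526) and Apob (0.51 ± 0.18, 0.0615) just beyond the threshold. The Apoc1 call held without male KO replicate 2 (0.00292) or male WT replicate 2 (0.0193) and was lost without any other single library, at an adjusted p of 0.054 to 0.118. It was also lost with RLE factors in place of TMM (edgeR adjusted p = 0.0506), with the length trend removed (-0.35, 0.0936) and with the length slope in the model (0.02, 0.976).

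The levels of some members moved with the length slope of the library. Apob, with the longest listed gene length, had the same order as the slope among the 3 libraries of each group in 4 of 4 groups. Apoc1, Apoc3 and Apoa1, at 744 to 1236 bases, had the opposite order in 3 of 4 groups, with a mixed order in female WT livers. Apoa2 and Apom had the opposite order in 2 groups and Apoe in 1, while Apoh had the same order in 1 group and the opposite in 1. Apoa4 and Apoa5 had a mixed order in 4 of 4 groups. Male KO replicate 2, which was high for Apoc1 and Apoc3 and low for Apob, had the lowest slope of the male libraries, at -0.17.

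**Figure D3:**
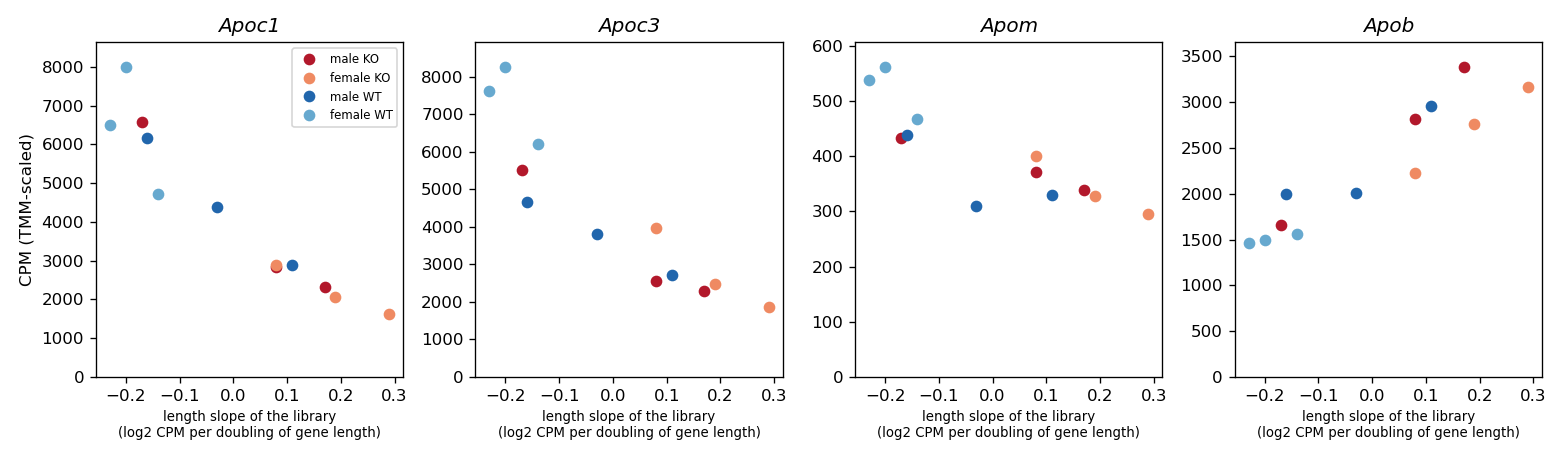
CPM of Apoc1, Apoc3, Apom and Apob against the length slope of each library (log2 CPM per doubling of gene length), with 12 points per panel coloured by group. Apoc1, Apoc3 and Apom are lower, and Apob higher, toward the right, where the 3 female KO livers lie at 0.08 to 0.29, while the 3 female WT livers lie at -0.23 to -0.14.

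With the slope of each library added to the edgeR model, none of the 10 members was called in females and 10 genes were called in all. By edgeR, log2 fold changes (female KO over female WT) were then 0.08 ± 0.24 for Apoc1 (adjusted p = 0.947), 0.01 ± 0.23 for Apoc3 (0.997), -0.08 ± 0.20 for Apom (0.934) and -0.16 ± 0.21 for Apob (0.858). Because the female groups do not overlap in slope, the part of the female differences that goes with the slope and the part that goes with KO status cannot be told apart in this fit. A second treatment removed from each library only its trend with gene length across all genes. Under it Apoc3 was still called (-0.57 ± 0.20, edgeR adjusted p = 0.0437), Apoc1 missed the threshold (-0.53 ± 0.20, 0.0562), and Apoa2 (0.65 ± 0.19, 0.0242) and Apoh (0.59 ± 0.19, 0.0355) were called higher. Apom and Apob were then at 0.26 and 0.25, neither called. Thus, of the 4 members called in females, Apoc1, Apoc3 and Apob changed sign with the slope in the model, each to a value smaller than its SE. Apom changed sign with the trend removed, and only the call of Apoc3 remained under that treatment. Of the members not called under TMM scaling alone, Apoa1, Apoa2, Apoa5 and Apoe went from negative to positive under each of the treatments.

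**Figure D4:**
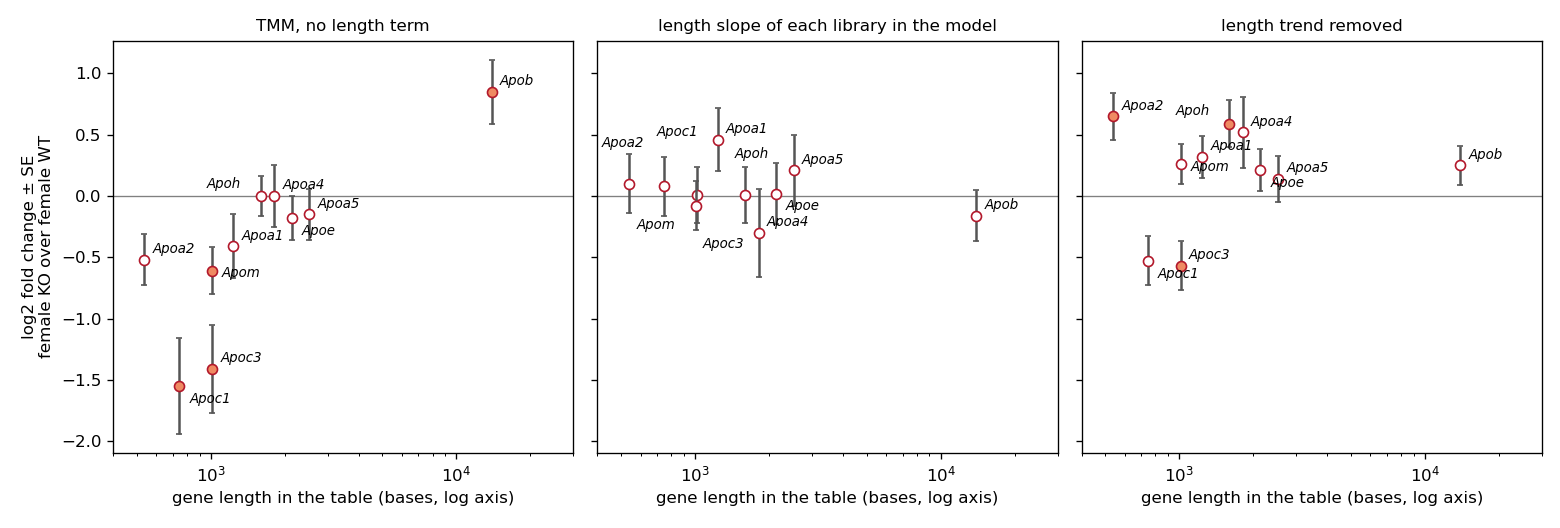
Log2 fold change ± SE (female KO over female WT) of the 10 genes against gene length in bases (log axis), under TMM scaling alone (left), with the length slope of each library in the model (middle) and with the length trend removed (right); filled points passed an edgeR adjusted p under 0.05. On the left Apoc1, at 744 bases, lies at -1.55 and Apob, at 13934 bases, at 0.85, whereas in the middle no point is filled and in the right panel Apoc1 and Apoc3 are the only members below 0.

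Male and female livers were compared within each genotype. In KO mice Apoa4 was lower in males and was the 1 of 10 members called, against 5.4% of all genes. Apoa4 encodes an apolipoprotein of chylomicrons and HDL that is made in intestine and, in the mouse, also in liver. Its gene lies at chr9:46151994-46154757 on the plus strand of mm39. Apoa4 stood at 254, 324 and 406 CPM in male KO livers, against 512, 575 and 808 CPM in female KO livers. All male KO livers were below all female KO livers, and Apoa4 was the only member without overlap there (1 of 10, against 28.1% of all genes). The mean was 328 ± 75.9 CPM in male KO and 632 ± 156 CPM in female KO livers (SD, n = 3 each), a log2 fold change of -0.95 ± 0.25 (edgeR adjusted p = 0.0455). The call held in 4 of the 12 fits that left out 1 library, whose fold changes ran from -1.12 to -0.72 and whose adjusted p ran from 0.0338 to 0.181. It was lost without any 1 of the female KO replicates, without male KO replicate 1 or 2, without female WT replicate 1 or 2, and without male WT replicate 1. It was also lost with RLE factors (edgeR adjusted p = 0.0524), with only the compared groups fitted (0.0886) and with the length slope in the model (-0.82, 0.064). A replicate block lost it too. The call was kept with the length trend removed (-1.18 ± 0.29, edgeR adjusted p = 0.0275), with DESeq2 and without a low-count filter. Of 7 intestinal markers, Sis, Lct and Cdx1 had 0 counts in all 12 libraries, and 1 of the other 4 had enough counts to be tested. That marker was called lower in female KO than in female WT livers, as were 18.8% of all genes tested. Summed, the 7 lay at 37.2 to 112 CPM in male KO and 40.9 to 53.2 CPM in female KO livers, and at 35.0 to 118 CPM in male WT and 80.9 to 140 CPM in female WT livers, and their part in the Apoa4 values was not tested. Without a stated strand setting, reads of Apoa4 cannot be told apart from those of the overlapping antisense gene Gm47528, and the table gives 118796 counts to Apoa4 and 145 to Gm47528 over all libraries. The same holds for Apoh, with 629635 counts, and the overlapping Prkca, with 1995.

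In WT mice the same comparison of Apoa4 gave 329, 447 and 378 CPM in males, against 773, 665 and 452 CPM in females. The groups were just separate, since male replicate 2 lay next to female replicate 3, and the log2 fold change of -0.71 ± 0.25 missed the threshold (edgeR adjusted p = 0.131). No member was called between the sexes in WT mice by edgeR, against 4.49% of all genes. At an unadjusted p under 0.05 there were 4 of 10, against 22% of all genes, and DESeq2 called 0. Without male KO replicate 2, which enters only the shared estimate of spread, Apoc3 was called (edgeR adjusted p = 0.0419). The sexes did not overlap in 5 of 10 members, against 26.9% of all genes: Apoa4, Apoc3, Apoe and Apom were lower, and Apob higher, in every male WT liver. Log2 fold changes (male over female) were -0.98 ± 0.35 for Apoc3 (edgeR adjusted p = 0.137) and 0.62 ± 0.25 for Apob (0.179), and the length slope was -0.16 to 0.11 in male WT livers and -0.23 to -0.14 in female WT livers. With the slope in the model no member was called either.

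Ratios between members within a library remove the scaling. Apoc1 over Apoc3 was 1.02 to 1.19 in male KO livers and 0.725 to 0.874 in female KO livers, and 1.07 to 1.32 in male WT livers and 0.762 to 0.968 in female WT livers. All 6 males thus had a higher CPM for Apoc1 than for Apoc3, and all 6 females a lower one. Apoa1 over Apoa2 was 1.82 to 2.23 in male KO and 1.32 to 1.75 in female KO livers, and 1.68 to 1.84 in male WT and 1.26 to 1.56 in female WT livers. The sexes did not overlap in this ratio in either genotype. Both ratios were picked after their values had been seen and were not tested.

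Among the members, the profiles most alike over the 12 libraries were those of Apoa2 and Apom, with a root-mean-square difference of 0.16 between gene-centred log2 CPM values, followed by Apoe and Apoh at 0.18 and Apoc1 and Apoc3 at 0.26. Apob and Apoc1 were farthest apart at 1.12. Of 5251 well-measured genes, the nearest to Apoc1 were Atp5l (0.07), Ndufs4 (0.08) and Dpm3 (0.08), and those nearest to Apoc3 were Dbi (0.12), S100a13 (0.13) and Mthfsl (0.15). For Apoa4 they were Fmo1 (0.27), Sdc1 (0.28) and Mat1a (0.30). The listed gene lengths of Atp5l (6443 bases) and Mthfsl (4728) are above the median of 4059 over all genes tested. Those of Ndufs4 (2708), Dpm3 (919), Dbi (1422) and S100a13 (715) are below it. The distances describe the same 12 libraries, including their shared slope.

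The rest of the lipoprotein pathway was read from lists chosen with earlier results of these data known. In females 8 of 14 uptake receptor genes rose in KO livers and none fell, against 17.7% of all genes tested called higher and 18.8% called lower. Their median log2 fold change was 0.86, against 0.05 over all genes tested. Lrp1, a remnant receptor that binds apolipoprotein E, averaged 878 ± 122 CPM in female KO and 283 ± 47.8 CPM in female WT livers (1.63 ± 0.34, edgeR adjusted p = 0.0139). Sort1, a sorting receptor that handles apolipoprotein B, averaged 19.4 ± 3.84 CPM in female KO and 6.11 ± 1.1 CPM in female WT livers (1.66 ± 0.32, 0.0139). The receptors' listed gene lengths are long, with a median of 7289.5 bases against 4059 over all genes tested. The list's count of calls was 7 with the length trend removed, and 0 with the slope in the model, without female KO replicate 2 or without female WT replicate 2. Summed endothelial markers lay at 227 to 330 CPM in female KO and 148 to 178 CPM in female WT livers. Of the 8 markers 4 were called higher, against 17.7% of all genes tested. The part of endothelial and Kupffer cells in the receptor values was not tested.

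Other apolipoprotein genes gave 1 call higher and 3 lower of 10 tested in females, near the 36.5% of all genes called in that comparison. Apoc4, next to Apoc1 in the Apoe cluster, averaged 582 ± 199 CPM in female KO and 1830 ± 413 CPM in female WT livers (-1.65 ± 0.47, edgeR adjusted p = 0.019). Apoo and Apool, whose products sit in the mitochondrial inner membrane, also fell, and Clu, which encodes clusterin and is named after its value was seen, rose (0.73 ± 0.25, 0.0381). In the assembly and secretion list 1 gene rose and 3 fell of 12, again near that share. Sar1b, the GTPase that loads lipoproteins into transport vesicles, averaged 144 ± 15.4 CPM in female KO and 498 ± 75.5 CPM in female WT livers (-1.79 ± 0.38, 0.0139). P4hb, the disulfide isomerase subunit of the triglyceride transfer protein, fell (-0.69 ± 0.21, 0.0231), while its partner Mttp missed the threshold (-0.37 ± 0.16, 0.0865).

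The counts of the last 4 lists also stand against 36.5% of all genes called in females. Lipases and their regulators gave 1 call higher and 3 lower of 9 in females. Lpl, lipoprotein lipase, was higher (1.35 ± 0.40, edgeR adjusted p = 0.0222) but low in level. It averaged 9.28 ± 5.64 CPM in female KO and 3.6 ± 0.927 CPM in female WT livers. Angptl4, a lipase inhibitor, was lower (-0.86 ± 0.28, 0.0317). Genes of HDL remodelling gave 2 higher and 2 lower of 9. The cholesterol exporters Abca1 (0.73 ± 0.17, 0.0142) and Abcg1 (1.01 ± 0.30, 0.0222) rose, and the HDL-borne enzyme Pon1 fell (-0.73 ± 0.21, 0.0219). Abcg1 averaged 6.61 ± 0.614 CPM in female KO and 3.27 ± 0.8 CPM in female WT livers. Of 4 genes for editing of Apob mRNA, the cofactor gene A1cf rose (1.19 ± 0.40, 0.035), and the deaminase gene Apobec1 missed the threshold (0.47 ± 0.28, 0.198). A1cf averaged 29.6 ± 15.1 CPM in female KO and 13 ± 2.36 CPM in female WT livers. Transcriptional regulators gave 11 higher and 3 lower of 29. Nr1d1, the clock repressor REV-ERBalpha, averaged 149 ± 26.5 CPM in female KO and 20.0 ± 1.63 CPM in female WT livers (2.90 ± 0.45, 0.0132), against 64.5 ± 40.0 CPM in male KO and 42.9 ± 12.7 CPM in male WT livers, which did not pass. In each of the 7 lists the female count was 0 with the slope in the model, without female KO replicate 2 and without female WT replicate 2.

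In males none of the 7 lists had a call between KO and WT by edgeR, where 0.0571% of all genes tested were called. Between the sexes edgeR called 4.49% of all genes in WT and 5.4% in KO mice. Of the list genes Tm6sf2, Vldlr, Sdc1 and Esr1 passed in both genotypes, each lower in males. In WT mice alone Lpl (1.76), Abcg8 (1.23) and Saa4 (1.10) were also called higher in males, and Lipa (-0.67) and Pon1 (-0.88) lower. In KO mice alone Apol9b (0.82) was called higher in males, and Lipg (-1.39) and Pltp (-1.10) lower. Tm6sf2, which lipidates VLDL, averaged 19.8 ± 4.57 CPM in male KO and 78.1 ± 13.7 CPM in female KO livers (-1.98 ± 0.30, edgeR adjusted p = 0.0012), and 19.5 ± 7.78 CPM in male WT and 68.1 ± 10.9 CPM in female WT livers (-1.80 ± 0.30, 0.00234). Vldlr, the VLDL receptor, was lower in males as well, at 6.04 ± 2.04 CPM in male KO and 20.0 ± 6.99 CPM in female KO livers (-1.73 ± 0.32, edgeR adjusted p = 0.00645), and passed in WT mice as well (0.00276). Sort1 was higher in male than in female WT livers (2.05 ± 0.33, 0.00193) and missed the threshold in KO mice (0.69 ± 0.31, 0.21).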

How the data were processed

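Liver poly(A) RNA of 12 mice was measured. The values are raw gene counts as deposited by the authors, checked to be whole numbers, with mm39 positions and gene lengths beside them. HISAT2 2.0.5, DESeq2 and mm39 stand, without a role, in the submitters' processing notes. The counting program and its strand option were not given in the sources used here. Columns were matched to samples by library number. Every row names a gene (0 without a name).

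Genes were kept by edgeR's filterByExpr over the 4 groups (14003 of 56748, holding 99.9% of counts). A model with 1 mean per group was fitted to all 12 libraries in edgeR 4.0.16 (R 4.3.3) with TMM factors and the quasi-likelihood F test, and p-values were adjusted by Benjamini-Hochberg over all genes within each of 6 contrasts. The standard error was taken back from F, as the size of the log2 fold change divided by the root of F, and is approximate. The biological coefficient of variation was 25.9%, with 2 as prior count for log2 CPM. Alternatives were RLE factors, no filter, DESeq2 1.42.0, fits of the compared groups alone, a replicate block, a length-slope covariate, length-trend offsets and each library left out. The fit was tested on simulated data. The labels call the samples biological replicates, and pairs within a group differed by more than sampling noise.

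All 10 members are named. Pathway genes named are up to 4 called members of each list with the smallest adjusted p, plus a few given as background or after their values were seen (Clu, Mttp, Apobec1, Sdc1, Abcg8, Pltp). Like genes were the nearest 3 for the 3 most variable members, among genes with mean log2 CPM of at least 4. Members, lists and motifs were chosen with earlier results of these data known.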

Additional observations from a re-analysis of the deposited data

How the results depend on the processing

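Of 1120 values of member fold changes under an alternative setting, 957 kept their direction and their side of the threshold, and 6 changed direction where a call stood before or after. With the length slope in the model these were Apob (-0.16), Apoc1 (0.08) and Apoc3 (0.01) in females and Apoc1 averaged over the sexes (0.02), all KO over WT on the log2 scale. With the length trend removed they were Apoa2 (0.65) and Apom (0.26) in females. Counting error is small at this depth, and 3 livers a group set the precision.

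The number of members called, KO against WT in females, was 4, and it became 0 with the slope in the model. It was 5 with DESeq2 or with only the compared groups fitted, and 3 with the length trend removed. Averaged over the sexes it was 1, and it became 0 with RLE factors, the slope or the trend removed and 3 without a low-count filter or with DESeq2. For the difference between the sexes in the KO effect it was 0, and 2 without a filter. Male against female it was 0 in WT mice, and 1 without a filter. In KO mice it was 1, and it became 0 with RLE factors, with only the compared groups fitted or with the slope, and 2 without a filter.

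Over all genes, KO against WT gave 5116 calls in females and 10 with the slope. In males it gave 8 calls, with 101 without a filter, 34 with DESeq2, 1 with only the compared groups and 18 with the slope. Averaged over the sexes it gave 2111, with 3900 without a filter, 3959 with DESeq2 and 21 with the slope. The difference gave 0, with 1451 without a filter, 218 with DESeq2 and 3 with the slope. Male against female gave 629 in WT mice, with 1700 without a filter and 1226 with DESeq2, and 756 in KO mice, with 1694 without a filter and 1395 with DESeq2. The cause of these shifts was not tested.

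With each library left out, the members called ran from 0 to 6 in females, stayed at 0 in males, ran from 0 to 3 averaged over the sexes, stayed at 0 for the difference, and ran from 0 to 1 for male against female in KO mice and in WT mice. The counts over all genes ran from 4 to 5993, 5 to 18, 18 to 5594, 0 to 2, 440 to 953 (KO mice) and 379 to 1124 (WT mice). The 0 in females came without female KO replicate 2 or female WT replicate 2, where 4 and 5 genes were called in all. The list counts under the length settings and without those libraries were added after the data had been seen.

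The replicate numbers did not pair the libraries, since the correlations of same-numbered libraries ran from -0.61 to 0.06 and no library was nearest to its own number. With the replicate number as a block, members called were 2 in females, 0 averaged over the sexes and 0 for male against female in KO mice. Over all genes the block gave 3365 calls in females, 23 averaged over the sexes and 415 for male against female in WT mice.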
